A study of Bubalus bubalis with 8 samples.

Results

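The NF-kB system was followed through heat stress in buffalo mammary epithelial cells (MECs) by 9 genes that code for its subunits, its inhibitors and the genes it switches on, some of which limit its own signal. The genes were NFKB1, NFKB2, RELB, NFKBIA, NFKBIE, TNFAIP3, BIRC3, ICAM1 and SOD2. Every probe that carries one of these gene names was taken, whatever its values, which gave 21 of the 43653 probes and 9 of the 24839 gene names on the array. The 9 genes themselves were chosen with earlier results of these data known. RNA came from primary MECs that were grown, per the study's methods, from the gland of 1 riverine buffalo and were used at passage 10. The unstressed control (CTR) was kept at 37 °C throughout. The other 7 groups were held at 42 °C for 1 h, returned to 37 °C and harvested 30 min later or after 2, 4, 8, 12, 16 or 24 h. Each of the 8 groups was read on 1 bovine oligonucleotide array with a single dye, so no test was possible, no p-value is given, and precision is limited by having 1 array for each group.

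NF-kB proteins are dimers of Rel family subunits that are held in the cytoplasm by IkB inhibitors. When a receptor for a cytokine or for a microbial product signals, a kinase complex marks the IkB protein for destruction and the dimer moves into the nucleus. Among the genes it then transcribes are its own subunits, its own IkB inhibitors and the ubiquitin-editing protein A20 (TNFAIP3), and NFKBIA mRNA is widely used as a rapid readout of the pathway. In the mammary gland the pathway is best known for the response of the epithelium and of resident leukocytes to infection.

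A probe is an oligonucleotide of 60 bases, and the results below turn on which of a gene's probes could see its transcript. The following probes are shown because they carry the largest difference from CTR among probes detected there (NFKBIA), the 1 probe of a feedback gene (TNFAIP3), a probe seen on 2 arrays only (BIRC3), a probe seen on 1 array (ICAM1) and a probe seen on none (NFKBIE). Each is written from 5′ to 3′ in the sense of the transcript, and the capitals mark the stop codon.
NFKBIA A_73_P369076: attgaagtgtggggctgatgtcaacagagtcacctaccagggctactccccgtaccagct
NFKBIE A_73_P378296: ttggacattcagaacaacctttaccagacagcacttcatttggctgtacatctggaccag
TNFAIP3 A_73_106743: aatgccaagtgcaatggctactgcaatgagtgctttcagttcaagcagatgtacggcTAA
BIRC3 A_73_P102586: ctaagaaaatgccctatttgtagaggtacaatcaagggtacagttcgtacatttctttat
ICAM1 A_73_P107686: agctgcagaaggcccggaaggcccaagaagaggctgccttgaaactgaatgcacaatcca

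According to the array files, on the bovine build HGSC Btau_3.1, the NFKBIA probe lies at chr21:46441432-46441491 on the minus strand, and the TNFAIP3 probe at chr9:78060830-78060889 on the plus strand. The BIRC3 probe lies at chr15:5396518-5396575 on the minus strand, and the ICAM1 probe at chr7:13286098-13286157 on the plus strand. The NFKBIE probe covers chr23:18403567-18404376 on the minus strand, so that its 60 bases are spread over 810 bases of the genome. The NFKBIA and NFKBIE stretches code for part of the ankyrin repeats by which IkB proteins hold NF-kB, and the BIRC3 stretch for the RING finger that makes this protein a ubiquitin ligase. All probes were designed on cattle sequence and read with buffalo RNA.

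A level is the log2 intensity of a probe relative to the 75th percentile of its array, and a change is the level at a time point minus that in CTR. On every array but that of 30 min a probe was taken as detected where the scanner software marked it well above background. Each array has a detection limit, the lowest level among its detected probes, which ran from -2.24 at 2 h to 0.24 at 24 h. At 30 min a probe was taken as detected where its level reached the highest of the other limits, 0.24. This gave 17 detected member probes at 30 min, where the scanner marked 9. Where a probe was not detected on the dimmer array, the fold is given as at least the value against that limit, or against the probe's own value where this was higher. The error of a change, from repeated spots within arrays, was between 0.28 at 8 h and 0.54 at 16 h on the log2 scale and leaves out all variation between cultures. It rests on 14 to 24 repeated probes per array, and the spots of CTR stood in for those of 30 min.

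Several facts about the arrays bear on these genes. The arrays came from 2 slides, with CTR, 8 h, 12 h and 24 h on slide 1 and 30 min, 2 h, 4 h and 16 h on slide 2, so in a change from CTR slide and heat cannot be told apart for the slide 2 time points. The CTR array was dark over 1 region, where bright probes were lower by a median of 1.30 than on the other arrays (n = 424 probes, coded as -1.30), and 3 of the 21 probes lie there (BIRC3 A_73_108229, ICAM1 A_73_117589 and SOD2 A_73_P100016). Changes from CTR are therefore counted over the other 18 probes, and the 3 probes are read between arrays that lack the dark region. The 30 min scanner intensities departed from the authors' own log2 values for that array (Pearson's r across 7256 bright probes 0.199, a value across probes and not across samples), and the authors' values were used. On the scanner side the 9 member probes with a detection mark at 30 min all lay in array rows 11 to 227. The 30 min and 2 h arrays were the closest pair of all, with an SD of 0.31 for their difference over 7256 bright probes. The next pair (8 h and 12 h) had 0.35 and the farthest (8 h and 16 h) 0.93. Repeated spots give 0.35 for the 30 min and 2 h pair. That value takes the spot SD of CTR (0.21) for 30 min, where scanner spots gave 2.03 over 13 probes. The like values of the 30 min and 2 h arrays for the 9 genes are therefore not counted as separate evidence.

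The labelled cell type was checked on marker genes. Keratins KRT5, KRT7, KRT14 and KRT19, EPCAM and CDH1 were detected on all 8 arrays, whereas KRT18 was detected only at 2 h and 16 h. The summed level of the epithelial list was 9.47 (log2) in CTR, 8.20 and 8.16 at 30 min and 2 h, and 10.1 and 10.8 after 4 and 16 h. After 8, 12 and 24 h it was 9.09, 9.01 and 9.19. Of its probes 4 of 18 were at least 3-fold lower at 30 min and 5 of 21 at 2 h, against 4.6% and 7.76% of all probes. They were the 4 probes of KRT8 and, at 2 h, 1 of KRT5. The 5 and 4 that were higher, against 7.61% and 5.32% of all probes, belonged to the milk protein genes CSN2, CSN3 and LALBA. Of these, CSN3 and LALBA were detected on all 4 arrays of slide 2 and on none of slide 1. At 4 h and at 16 h 8 of 20 probes of the epithelial list were at least 3-fold higher and 4 lower. Of all probes 2.66% and 6% were higher and 5.37% and 5.33% lower at these times. Of 8 leukocyte marker genes, 6 were detected after 30 min and 7 after 2 h, against 3 in CTR and 3 to 5 on the remaining arrays. The summed level of the leukocyte list was 4.09 (log2) in CTR, 7.25 after 30 min and 6.68 after 2 h, it was 4.00 and 4.85 after 4 and 16 h, and it lay between 3.44 and 3.86 on the other arrays of slide 1. CD14, CD68, CSF1R and CD3E were not detected in CTR and were detected at 30 min and 2 h. CD79A was detected in CTR and at 2 h but not at 30 min. The limit at 30 min (0.24) lay above those of CTR (-0.59) and 2 h (-2.24), so no direction is read from this. ITGAM was not detected on any array. Of 8 fibroblast marker genes 1 was detected at 30 min, under the same higher limit, 4 in CTR and at 2 h, and all 8 at 16 h. At 16 h 11 of 25 fibroblast probes were at least 3-fold higher than CTR, against 6% of all probes. At 2 h 3 of 8 were lower (7.76% of all probes), and at 4 h 4 of 16 were lower (5.37%) and 1 higher (2.66%). Their summed level was 8.51 in CTR, 8.05 and 7.76 at 30 min and 2 h, and 7.24 and 8.40 after 4 and 16 h. Of 4 endothelial marker genes 0 were detected in CTR and 1 (VWF) at 30 min and 2 h. The summed leukocyte level was thus highest, and the summed epithelial level lowest, at 30 min and 2 h, where the NF-kB genes described next were high. The summed epithelial level was also below CTR after 8, 12 and 24 h. The count of lower epithelial probes did not follow the NF-kB genes, since 4 were also lower at 4 h and at 16 h. The part of these markers in the result was not tested.

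The 9 genes were high at 30 min and 2 h. At 30 min 10 of the 14 probes that could be compared with CTR were at least 3-fold higher, against 7.61% of all probes, and they stood for 7 genes (all but TNFAIP3 and ICAM1). At 2 h it was 10 of 16 probes, for the same 7 genes, against 5.32% of all probes. A probe not detected in CTR enters these counts only by being detected at the time point. Such a probe could come out only as higher or without a fold. The 6 probes detected in CTR, of NFKB1, RELB and NFKBIA, could have gone either way, and 6 of 6 were higher at each time. At 4 h 1 of 10 probes was higher (NFKBIA, against 2.66% of all probes), and at 16 h 2 of 7 (NFKBIA and SOD2, against 6% of all probes). After 8, 12 and 24 h 0 of 6, 0 of 9 and 0 of 6 probes were higher, against 0.552%, 0.17% and 0.098% of all probes. No member probe was 3-fold lower at any time, but only the 6 probes detected in CTR could have been, so nothing is read from this count. It stands against 4.6% of all probes at 30 min and 7.76%, 5.37%, 0.192%, 0.457%, 5.33% and 0.615% at the later times in order.

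**Figure D1:**
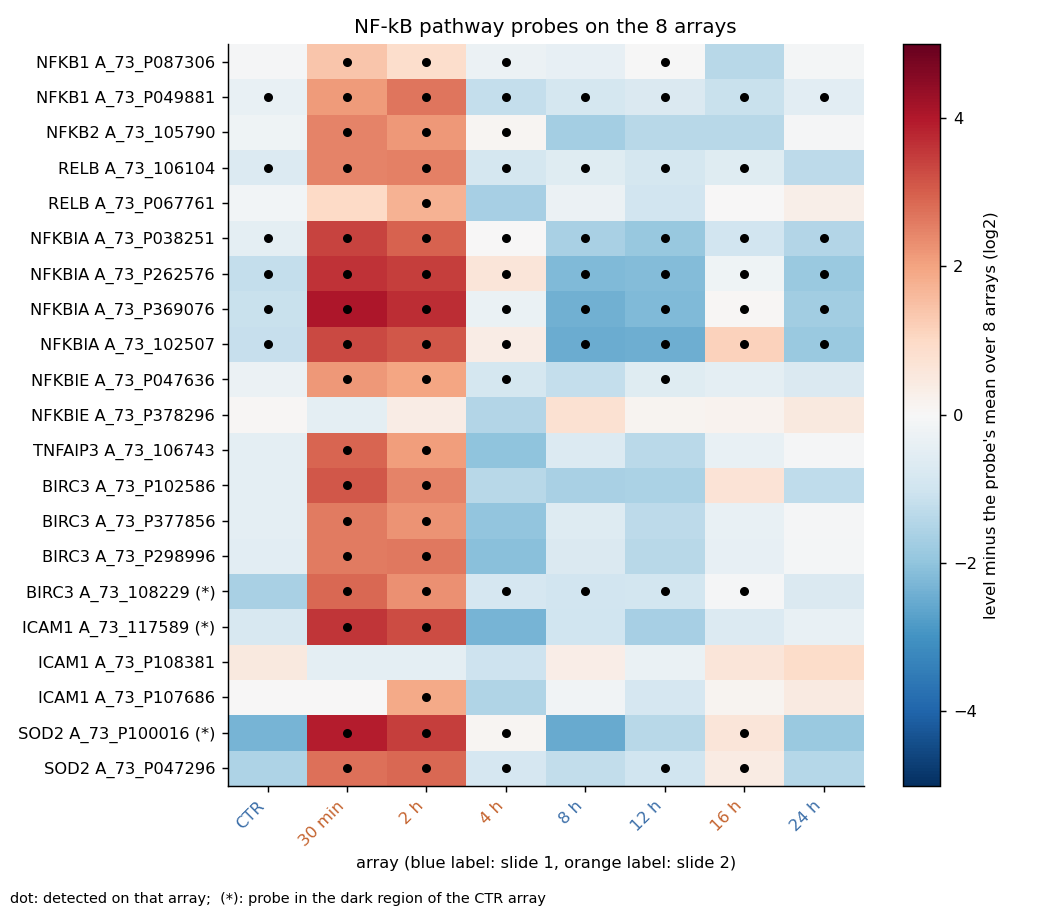
Level of each of the 21 probes (rows) on each of the 8 arrays (columns), as the difference from that probe's own mean over the arrays (log2); a dot marks detection and an asterisk a probe in the dark region of the CTR array. The 30 min and 2 h columns are the high ones, with 17 and 19 probes detected, against 6 in CTR.

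The median change of the member probes was 2.68 at 30 min and 2.65 at 2 h, where the median over all probes was -0.20 and -0.26. Each member median rests on 14 probes. In both kinds of median a probe not detected in CTR could enter only as higher. Over the 6 member probes detected on both arrays the medians were 4.15 and 3.85, beside -0.22 and -0.41 for all such probes. At 4 h and 16 h the member medians were 0.52 and 0.96, beside -0.08 and -0.10 for all probes. After 8, 12 and 24 h they were -1.07, -0.68 and -0.64, beside -0.13, -0.24 and -0.15. These late medians rest on 6, 8 and 6 probes, of which 4 each time were those of NFKBIA, and at 8 h NFKB1 changed by -0.51 and RELB by 0.07. In RNA from mixed cells a lower level can come from fewer cells of a type or from less RNA per cell, and these cannot be told apart. Of the 21 probes 17 were detected at 30 min and 19 at 2 h, against 6 in CTR, where 23.3%, 40.2% and 26.5% of all probes were detected. After 4, 8, 12, 16 and 24 h 12, 7, 10, 9 and 5 were detected, beside 37.5%, 27.8%, 33.4%, 25.5% and 23.2% of all probes. Only 5 probes, all 4 of NFKBIA and 1 of NFKB1, were detected on all 8 arrays.

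**Figure D2:**
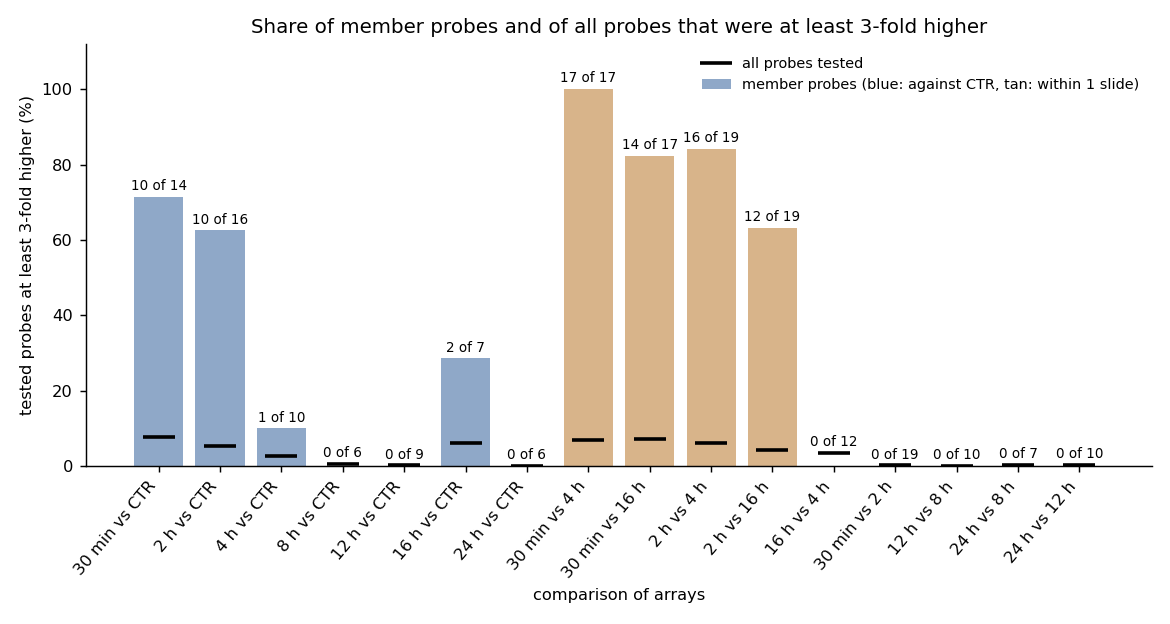
Percent of the compared probes that were at least 3-fold higher, for the member probes (bars, with counts) and for all probes (black marks), in each comparison of 2 arrays. Against CTR the bars at 30 min (10 of 14) and 2 h (10 of 16) stand far above their marks of 7.61% and 5.32%, and within slide 2 the bars of 30 min and 2 h against 4 h reach 17 of 17 and 16 of 19.

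Of the subunits, NFKB1 codes for the precursor of the DNA-binding subunit of the classical dimer. Its brighter probe (A_73_P049881) had a level of 0.80 in CTR on slide 1, and of 0.29, 0.43 and 0.63 there after 8, 12 and 24 h. On slide 2 its level was 3.27 after 30 min, and 3.82, -0.05 and 0.02 after 2, 4 and 16 h. The 30 min and 2 h arrays stood 5.57-fold and 8.12-fold above CTR, and no other array was above it. The second NFKB1 probe (A_73_P087306) was detected only at 30 min and after 2, 4 and 12 h, and was at least 2.78-fold and 1.93-fold higher at 30 min and 2 h.

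RELB, the transactivating subunit of the alternative NF-kB dimer, had a level of 0.52 in CTR, and on the same slide of 0.60 and 0.30 after 8 and 12 h and of -0.13 after 24 h, the last not detected. Slide 2 gave 3.67 after 30 min, and 3.72, 0.30 and 0.59 after 2, 4 and 16 h. It was thus 8.83-fold and 9.14-fold higher than CTR at 30 min and 2 h. After 4, 8, 12 and 16 h it differed from CTR by less than the error of a change. The second RELB probe (A_73_P067761), whose 60 bases are spread over 4036 bases of the genome, was detected at 2 h only.

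NFKB2, the partner of RELB in that dimer, was not detected in CTR. Its levels on slide 1 were -1.23 in CTR and -2.68, -2.40 and -1.05 after 8, 12 and 24 h, none of them detected. On slide 2 they were 1.47 after 30 min and 1.18, -0.90 and -2.39 after 2, 4 and 16 h, the last not detected. The difference from CTR was at least 4.16-fold and 3.39-fold at 30 min and 2 h.

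**Figure D3:**
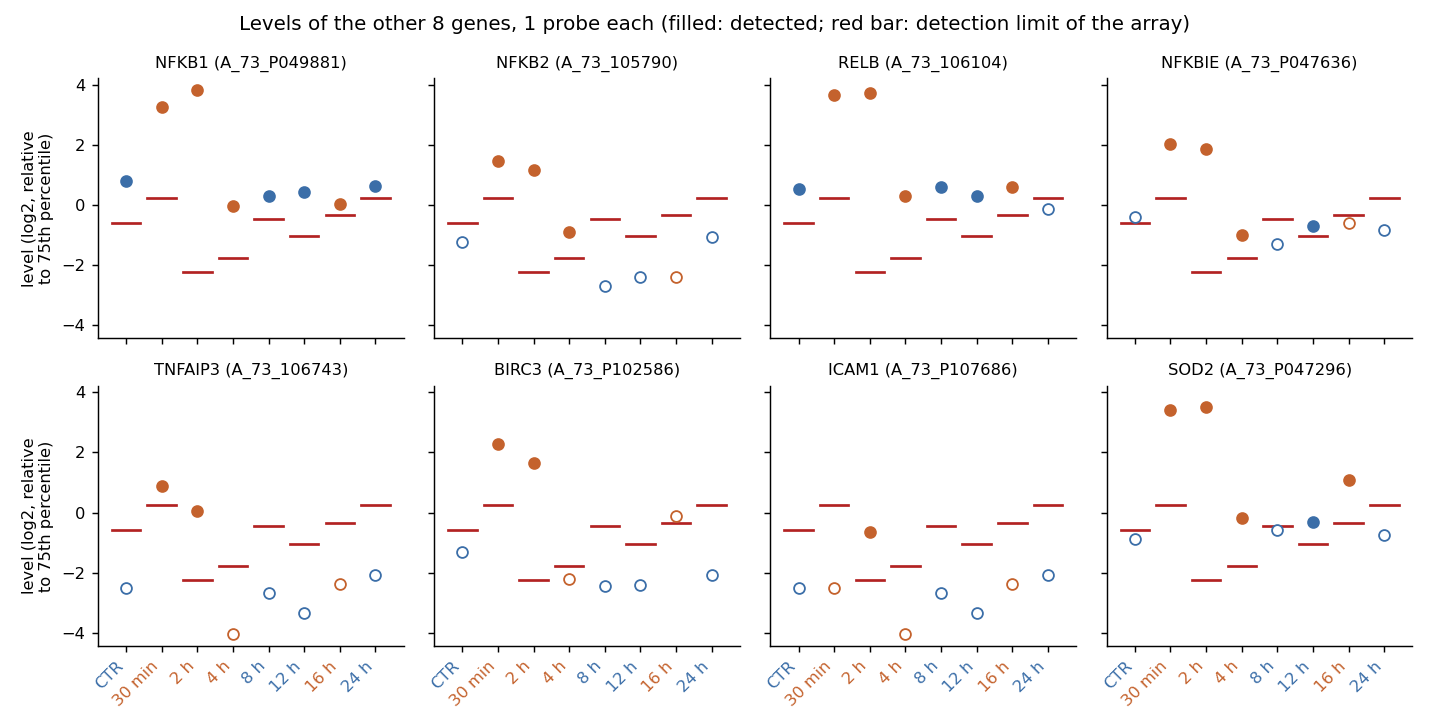
Level of 1 probe of each of 8 genes (log2, relative to the 75th percentile of the array) on the 8 arrays, with the detection limit of each array as a red bar; filled points were detected. NFKB1 and RELB are detected in CTR and stand 5.57-fold and 8.83-fold higher at 30 min, while TNFAIP3 and BIRC3 are detected only at 30 min and 2 h.

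Of the inhibitors, NFKBIA codes for IkB alpha, the inhibitor that is made anew in each round of activation. Among the genes detected in CTR it showed the largest differences from CTR. The folds of genes not detected there are lower bounds, so they are not ranked against it. The probe printed above (A_73_P369076) had a level of 2.39 in CTR, 7.54 after 30 min and 7.22 after 2 h. It stood at 3.19 and 3.58 after 4 and 16 h, and at 1.10, 1.31 and 1.78 after 8, 12 and 24 h. On the 30 min scanner image this probe was saturated, the only such value among the member probes, so the 30 min array was at least 35.3-fold above CTR, and the 2 h array was 28.3-fold above it. The other 3 NFKBIA probes were 14.6-fold (A_73_P038251), 27.8-fold (A_73_P262576) and 21.7-fold (A_73_102507) higher at 30 min, and 10.9-fold, 25.1-fold and 18.9-fold higher at 2 h. Over the 4 probes the change was 4.56 ± 0.55 at 30 min, and 4.29 ± 0.61 and 1.15 ± 0.60 after 2 and 4 h (log2, SD over probes of 1 array, which are not replicates, with the saturated value as it stands). A_73_P262576 and A_73_102507 share a run of 34 bases.

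**Figure D4:**
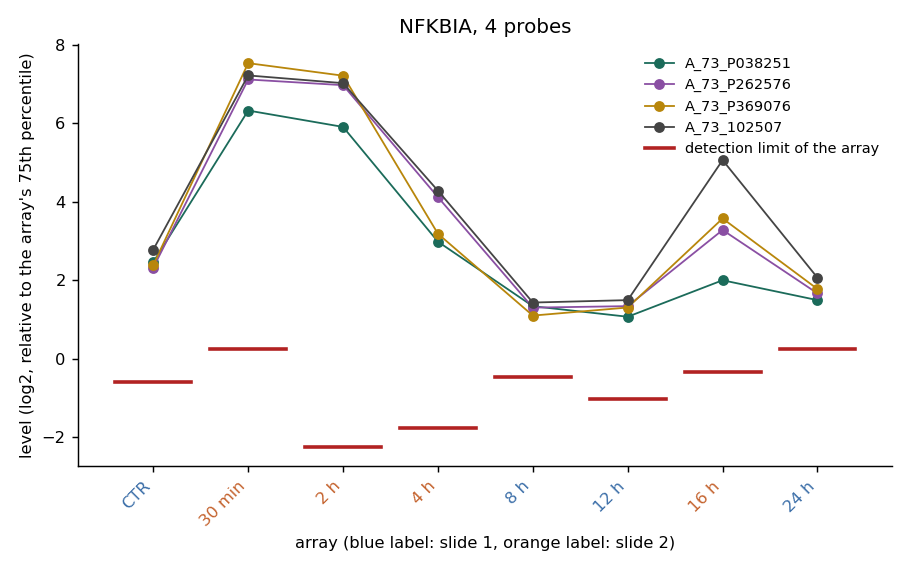
Level of the 4 NFKBIA probes (log2, relative to the 75th percentile of the array) on the 8 arrays, with the detection limit of each array as a red bar; lines join the values of 1 probe. All 4 are highest at 30 min, lie below their CTR level after 8, 12 and 24 h, and part at 16 h, where their changes from CTR run from -0.46 to 2.28.

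At the late times of the control's own slide NFKBIA lay below CTR. All 4 probes were lower at 8 h, by 2.18-fold, 2.03-fold, 2.45-fold and 2.55-fold, a change of -1.20 ± 0.15. The change was -1.19 ± 0.19 at 12 h and -0.74 ± 0.16 at 24 h (log2, SD over 4 probes of 1 array), and it exceeded the error of a change (0.28, 0.33 and 0.36). None of these differences reached 3-fold. At a cutoff of 2-fold 4 of 6 member probes were lower at 8 h, against 3.27% of all probes, and 3 of 9 at 12 h, against 5.5%, all of NFKBIA, while 2 of 10 were higher at 4 h, against 6.72%, again of NFKBIA. The mean change of NFKBIA kept its sign under the 8 alternative settings that were run at each of these times, but its size varied. It ran from -1.24 to -1.01 at 8 h, from -1.19 to -0.65 at 12 h and from -1.18 to -0.51 at 24 h. The -0.65 at 12 h came with normexp background correction.

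At 16 h the 4 probes disagreed, with changes of -0.46 (A_73_P038251), 0.96 (A_73_P262576), 1.18 (A_73_P369076) and 2.28 (A_73_102507). The 16 h array was uneven where they lie, since bright probes within 10 spots departed from the other arrays by a median of -0.80, -0.87, -0.35 and 0.64 in the same order. With the local departures of both the 16 h and the CTR array taken off the changes were 0.48, 1.84, 1.66 and 1.78, and the mean over the probes went from 0.99 ± 1.13 to 1.44 ± 0.64.

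NFKBIE, which codes for IkB epsilon, another inhibitor that NF-kB induces, had an undetected level of -0.39 in CTR on its brighter probe (A_73_P047636), and of -1.29, -0.70 and -0.82 after 8, 12 and 24 h, of which only the 12 h value was detected. It reached 2.04 after 30 min and 1.88 after 2 h, and was at -0.99 after 4 h, all detected, and at -0.62 after 16 h. The difference from CTR was at least 5.41-fold and 4.82-fold at 30 min and 2 h. The second probe, printed above, was not detected on any array. Among probes whose bases are spread over a longer stretch of the genome, 35.4% of 6252 were detected on some array, against 47.8% of 33118 probes that match the genome in 1 block of 59 to 61 bases, and 1 of the 2 member probes of the first kind was detected, against 16 of 17 of the second.

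Of the feedback genes, TNFAIP3 codes for A20, which removes the ubiquitin chains that carry the signal. It was detected only at 30 min and 2 h, at levels of 0.88 and 0.06. Its undetected levels were -2.51 in CTR, -2.68, -3.36 and -2.08 after 8, 12 and 24 h, and -4.04 and -2.39 after 4 and 16 h. Against the limit of the CTR array it was at least 2.76-fold and at least 1.56-fold higher, so these arrays could not place it past 3-fold. Against the 4 h array of the same slide, whose limit is lower, it was at least 6.31-fold and 3.56-fold higher at 30 min and 2 h.

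BIRC3, a ubiquitin ligase of the TNF receptor complex, had 4 probes. The probe printed above (A_73_P102586) was detected only at 30 min and 2 h, at levels of 2.29 and 1.66. Undetected, it stood at -1.31 in CTR, at -2.45, -2.40 and -2.08 after 8, 12 and 24 h, and at -2.21 and -0.12 after 4 and 16 h. It was at least 7.35-fold and 4.75-fold higher than CTR at these times. The probes A_73_P377856 and A_73_P298996 were also detected only at these times, at least 2.24-fold and 2.35-fold higher at 30 min. The 4th probe (A_73_108229), in the dark region, was read on slide 2 and was 13.0-fold higher at 30 min and 8.71-fold higher at 2 h than at 4 h.

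Of the targets with effector roles, ICAM1, the adhesion protein that leukocytes bind, was seen mainly through its probe in the dark region (A_73_117589). On slide 2 its levels were 1.88 after 30 min and 1.57, -4.04 and -2.39 after 2, 4 and 16 h, and it was detected at 30 min and 2 h alone. It was at least 12.7-fold and 10.2-fold higher at these times than at 4 h. Of the other ICAM1 probes, A_73_P107686 was detected at 2 h only (level -0.64), where it was at least 2.20-fold higher than at 4 h, and A_73_P108381 was not detected on any array.

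SOD2, the mitochondrial superoxide dismutase that NF-kB induces, had an undetected level of -0.86 in CTR, and of -0.57, -0.32 and -0.75 after 8, 12 and 24 h, of which only the 12 h value was detected (A_73_P047296). On slide 2, where it was always detected, the levels were 3.41 after 30 min and 3.52, -0.17 and 1.08 after 2, 4 and 16 h. The difference from CTR was at least 16.0-fold, 17.3-fold and 3.17-fold at 30 min, 2 h and 16 h. The second SOD2 probe (A_73_P100016), in the dark region, was 14.5-fold higher at 30 min and 10.3-fold higher at 2 h than at 4 h.

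Within slide 2 the same contrast was read without the CTR array and with all 21 probes. All 17 probes that could be compared were at least 3-fold higher at 30 min than at 4 h, against 7.02% of all probes, and they stood for all 9 genes. Against 16 h 14 of 17 were higher (7.11% of all probes), for all genes but TNFAIP3. For 2 h it was 16 of 19 against 4 h (6.16% of all probes, all 9 genes), and 12 of 19 against 16 h (4.27% of all probes, all genes but NFKB2 and TNFAIP3). No member probe was 3-fold lower in these comparisons, where only the 12 probes detected at 4 h and the 9 at 16 h could have been, and where 0.913%, 3.87%, 2.16% and 5.52% of all probes were, in the same order. These counts take in the probes of the dark region, which the counts against CTR left out. The detection limits also differ, at -1.78 (4 h) and -0.34 (16 h) against -0.59 in CTR. The shares on 1 slide are therefore not set against those from CTR. Probes not detected at 4 h or 16 h could come out only as higher or without a fold. On this slide the summed leukocyte level was also higher at 30 min and 2 h than at 4 h and 16 h, and its part in the result was not tested.

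Other pairs of 1 slide did not show it. Between 30 min and 2 h 0 of 19 probes differed 3-fold (0.154% of all probes were higher at 30 min and 0.0969% lower), with differences between -0.54 for NFKB1 and 0.82 for TNFAIP3 over 17 probes. Between 16 h and 4 h 0 of 12 differed 3-fold (3.48% of all probes were higher and 1.27% lower). SOD2 (A_73_P047296) was higher at 16 h than at 4 h by 1.25 (log2), and the differences of the NFKBIA probes ran from -0.98 to 0.78. On slide 1 0 of 10 differed 3-fold between 12 h and 8 h, 0 of 7 between 24 h and 8 h, and 0 of 10 between 24 h and 12 h, where 0%, 0.227% and 0.199% of all probes were higher and 0.204%, 0.85% and 0.185% lower. NFKBIA was lower in all 3 heat-stressed arrays of slide 1 than in CTR, and its 4 probes were higher at 24 h than at 12 h by 0.32 to 0.57 on the log2 scale.

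The rest of the pathway was read through 5 lists of genes, each count of which stands beside 7.61% of all probes higher and 4.6% lower at 30 min, and 5.32% higher and 7.76% lower at 2 h. In the list of other subunits and IkB proteins 3 of 7 probes were at least 3-fold higher at 30 min and 3 of 11 at 2 h, and 0 lower, with a median change of 2.24 and 0.56. They belonged to the nuclear IkB proteins NFKBIZ (at least 65.7-fold and 38.2-fold) and NFKBID (at least 17.3-fold and 12.1-fold on its probe A_73_P287571). RELA, the classical transactivating subunit, was detected on all 8 arrays and gave no single answer: at 30 min and 2 h its brighter probe (A_73_105793) changed by 0.13 and 0.28 (log2) and A_73_P239530 by -0.54 and -0.30. The repressor NKRF was not detected at 30 min and changed by -1.30 at 2 h.

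In the list of kinases and adaptors 3 of 19 probes were at least 3-fold higher at 30 min (7.61% of all probes) and 4 of 26 at 2 h (5.32%), and 0 lower, with a median of 0.62 and 0.33. TRAF1, an adaptor that is itself an NF-kB target, was 15.0-fold and 11.5-fold higher. The kinases IRAK2 (at least 13.9-fold and 10.0-fold) and MAP3K8 (at least 4.14-fold and 3.33-fold) were also higher, and the receptor family member RELT at 2 h (at least 3.41-fold). IRAK2, MAP3K8 and RELT were not detected in CTR and could come out only as higher or without a fold. Over probes detected on both arrays the median of the list was 0.49 at 30 min and 0.18 at 2 h. The kinases MAP3K7 and IRAK4 were not detected at 30 min and changed by -0.94 and -1.19 (log2) at 2 h.

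In the list of receptors 5 of 11 probes were at least 3-fold higher at 30 min (7.61% of all probes) and 5 of 16 at 2 h (5.32%), and 2 were lower at each time (4.6% and 7.76%), with a median of 1.09 and 0.88. The TNF receptor TNFRSF1B was at least 92.9-fold and 98.9-fold higher, the microbial sensor TLR4 at least 8.89-fold and 6.70-fold, and CD40 8.64-fold and 5.46-fold. TLR2 gave no single answer: its probe A_73_115997 was at least 9.48-fold and 7.21-fold higher, while A_73_P215177, detected on all 8 arrays, changed by -0.13 and -0.01 (log2). Both lower probes belonged to TNFRSF12A, the receptor of the cytokine TWEAK, with changes of -1.83 and -1.68 (log2) on the brighter probe (A_73_P058061) and of -2.31 and -2.51 on the other (A_73_115145).

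The list of deubiquitinases and other brakes had a median of 0.02 at 30 min and 0.10 at 2 h. Only SOCS1, a suppressor of cytokine signalling, was past 3-fold, with 1 of 17 probes at 30 min (at least 3.80-fold) and 0 of 24 at 2 h (at least 2.99-fold). These counts are near the 7.61% and 5.32% of all probes and are no result about the list. The ubiquitin ligase ITCH was not detected at 30 min and changed by -1.56 (log2) at 2 h, and TRAFD1 changed by -0.91 and -1.27 on its brighter probe.

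In the list of other target genes 25 of 46 probes were at least 3-fold higher at 30 min (7.61% of all probes) and 26 of 57 at 2 h (5.32%), and 0 lower, with a median of 2.40 and 2.20. The probes were those of 15 genes at each time. The largest differences were in the cytokines IL8 (at least 129-fold and 168-fold), IL1B (at least 152-fold and 81.1-fold), TNF (at least 91.8-fold and 85.6-fold), IL1A (at least 84.0-fold and 60.1-fold) and the chemokines CCL5 (at least 116-fold and 95.7-fold) and CXCL2 (at least 80.6-fold and 80.5-fold). The survival gene BCL2A1 (at least 42.5-fold and 35.8-fold) and the nitric oxide synthase NOS2 (29.3-fold and 18.8-fold) were also higher. The gelatinase MMP9 changed by -0.64 and -1.08 (log2) on its brighter probe (A_73_119412), while A_73_P101206 was not detected at 30 min and changed by -1.34 at 2 h. The iron store protein FTH1 changed by -1.06 and -1.32 on A_73_P097471. Over probes detected on both arrays alone the median of this list was 0.32 at 30 min and -0.43 at 2 h. In the same way it was 0.13 and -0.012 for the subunits and IkB proteins and -0.12 and -0.052 for the receptors, so the medians of these 3 lists rest on probes that were not detected in CTR.

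**Figure D5:**
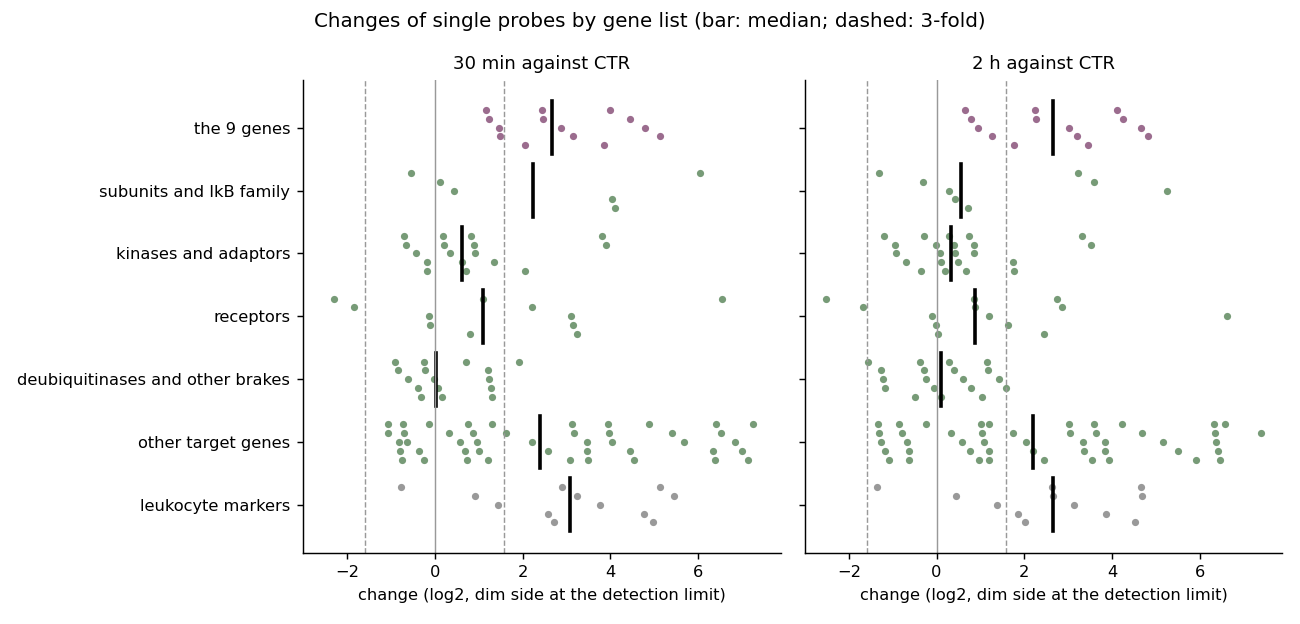
Change from CTR of single probes (points, log2, with undetected sides at the detection limit) for the 9 genes, the 5 pathway lists and the leukocyte markers, at 30 min and 2 h; black bars are medians and dashed lines mark 3-fold. The medians at 2 h are 2.65 for the 9 genes, 2.20 for the other targets and 2.65 for the leukocyte markers, and 0.10 for the deubiquitinases and other brakes.

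In the leukocyte marker list 9 of 12 probes were at least 3-fold higher at 30 min (7.61% of all probes) and 9 of 13 at 2 h (5.32%), and 0 lower, with a median change of 3.07 and 2.65. The part of these markers in the changes of the pathway lists was not tested.

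The genes whose pattern over the 8 arrays was most like the mean of the 9 genes were CYP27A1, a sterol hydroxylase (Pearson's r = 0.992), CCL3, a chemokine (0.991), CCRL2, a chemokine receptor-like protein (0.991), TYROBP, an adaptor of myeloid and natural killer cell receptors (0.990), and LYN, a kinase of blood cell receptors (0.990), among 15211 probes with a gene name. The level of TYROBP was 5.75 after 30 min and 5.26 after 2 h, against -0.32 in CTR, -0.51, -0.62 and -0.06 after 8, 12 and 24 h, and -0.76 and 1.38 after 4 and 16 h. Like the 9 genes it was high on 2 arrays and low on the other 6, which alone makes r large. The same holds for many probes, since 733 reached an r of 0.9 and 354 an r of 0.95.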

How the data were processed

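The authors scanned 8 one-colour arrays and deposited the processed intensity of each spot (Feature Extraction 9.5.3.1) and a table of log2 values, scaled by the 75th percentile and centred per probe. Here the log2 intensity minus the array's 75th percentile was used, as a mean over the spots of a probe that carry no outlier mark. For 30 min the deposited log2 values were used, placed on the scale of the other arrays by the median offset over these 7 arrays, and a probe was taken as detected at 30 min where it reached the highest of the other limits. The SD of CTR spots stood in for 30 min. Probe sequences and positions are those of the array files. All 9 symbols, and 109 of 122 list symbols, were found in the RefSeq buffalo gene table. The members and lists were chosen with earlier results of these data known, and NFKB1 and NFKBIE are also among genes the study listed from these arrays. Genes named from a list had a probe outside the dark region changed at least 3-fold at 30 min or 2 h, at most 8 per list, with 2 of the opposite direction, and 5 were named by likeness. Alternatives were normexp background correction (offset 50), quantile scaling, the array median, the 75th percentile over bright probes, the deposited log2 values, the 30 min scanner intensities, no bound for undetected probes, probes detected on both arrays, the dark region kept, a 2-fold cutoff and, chosen after seeing the data, the local departure of the array subtracted. The calculations were tested on simulated data and run in Python 3.11.15 with pandas 2.3.3 and numpy 2.4.6.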

Additional observations from a re-analysis of the deposited data

How the results depend on the processing

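No paired analysis was possible because each group held 1 array, and for the same reason no array could be left out of a group. Under 11 alternatives the member probes at least 3-fold higher than CTR at 30 min numbered between 6 and 14, and under 10 alternatives at 2 h between 6 and 15; the lowest counts came with probes detected on both arrays, where 6 of 6 were higher at each time and fewer probes could be compared. Of 180 values for single genes 139 moved by less than the error of a change and 2 turned sign: on the 30 min scanner intensities NFKB1 (A_73_P049881) changed by -0.60 and NFKBIA (A_73_102507) by -2.58, both in the part of that array where scanner and deposited values departed. There 1 member probe was lower, the member median at 30 min was 4.65, and the list medians were 2.89 (kinases and adaptors), 3.91 (receptors), 1.59 (brakes) and 2.92 (other targets). With normexp the member medians were 1.84, 1.13 and -0.33 after 2, 4 and 12 h, the counts 2 at 4 h and 1 at 16 h, and the medians 1.45 (subunits and IkB, 30 min) and 1.76 (other targets, 2 h). Quantile scaling gave 4.00 for subunits and IkB at 30 min. The array median shifted all probes to a median of 0.80 at 30 min and of 0.41, 0.86, -0.22 and -0.53 after 2, 4, 16 and 24 h. The member medians were then 3.63 at 30 min, 1.19 at 4 h and -1.07 at 24 h, with counts of 4 at 4 h and 1 at 16 h, and the list medians at 30 min and 2 h were 3.19 and 1.05 (subunits and IkB), 1.67 and 0.94 (kinases and adaptors), 2.04 and 1.57 (receptors), 1.38 and 0.72 (brakes), and 3.78 at 30 min (other targets). Without bounds for undetected probes the member median at 30 min was 3.28, and the lists gave 0.44 and 1.59 (subunits and IkB), 3.02 and 1.62 (receptors), and 3.37 and 2.96 (other targets). Over probes detected on both arrays the member medians were 4.15 at 30 min, 3.85 at 2 h and -1.04 at 12 h, the count at 16 h was 1, and the lists gave 0.13 and -0.012 (subunits and IkB), -0.12 and -0.052 (receptors), and 0.32 and -0.43 (other targets). With the dark region kept other targets had 2.83 at 30 min. A 2-fold cutoff gave 2 of 10 probes higher at 4 h (6.72% of all probes), and 4 of 6 lower at 8 h and 3 of 9 at 12 h (3.27% and 5.5% of all probes). With the local departure of the array subtracted, an alternative chosen after seeing the data, 0 probes were 3-fold higher at 4 h. Apart from the constructions named here, the cause of these shifts was not tested. Within slide 2 the counts stayed within 1.5 times of 17 and 16 against either array. Detection limits set what could be seen: 15 of the 21 probes were not detected in CTR, so most differences from it are bounds.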
